A study of Caenorhabditis elegans with 4 samples.

Results

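The right arm of chromosome X held 447 of the 5999 regions bound by GFP-tagged GEI-11 in the combined list of fed first-stage (L1) larvae of Caenorhabditis elegans, a nematode. The 447 were chosen by position alone, as the regions on X whose centre lies above 11800 kb in the WormBase build WS220. They make up 45.1% of the 991 regions of X, and the stretch, measured to the last region end on the chromosome, is 33.3% of the length of X. The choice of this stretch followed earlier results of the same data, so the number of regions in it is a description and was not tested. Just inside the border lay regions with −log10 q of 2.82, 2.72 and 3.21, starting at 11881500, 11907982 and 11924118. Just outside it lay regions with 5.02, 6.74 and 4.53, starting at 11797945, 11791313 and 11692962.

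GEI-11, also called SNPC-4, is a Myb-domain subunit of SNAPc, the complex that binds a proximal sequence element upstream of small nuclear RNA genes and helps RNA polymerases II and III start there. In the worm germ line the same protein is known to occupy the domains of chromosome IV that hold piRNA genes. Chromosome X is known for another class of short non-coding genes, the transfer RNA genes, whose usual promoter lies inside the gene. In the RefSeq gene table of the WBcel235 assembly, X carried 276 of 612 nuclear tRNA genes (45.1%), where each autosome carried 57 to 78. By contrast X carried only 3 of 129 snRNA genes, listed as M163.13, F20D1.21 and F35B3.10, and 162 of 15363 piRNA genes. These are counts by chromosome. The table belongs to another build than the regions, so which of these genes lie on the right arm, or under a region, is not analysed here, and no sequence of WS220 was used.

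The study had 4 samples, 2 of chromatin collected with an antibody against GFP (ChIP) and 2 of input chromatin, numbered as replicates 1 and 2. All came from 1 strain, OP179, which carries the mutation unc-119(ed3) III and the transgene wgIs179, a rescuing copy of unc-119 joined to gei-11 tagged with TY1, EGFP and 3xFLAG. The animals were hermaphrodites fed HB101 bacteria. The transgene was introduced by bombardment and the genotype lists no mutation of the animal's own gei-11, so untagged protein may be present beside the tagged one. Whole larvae were used, so a region may be bound in 1 tissue or in many. Nothing in the labels states that the replicates were separate cultures, so their spread may be technical. The values were 3 lists of regions, 1 per ChIP replicate and 1 combined, each region with a q value from the caller PeakSeq. Sequencing depth is unknown, no input list was analysed, and a q value ranks regions within its own list only. With a single pair of libraries there were no samples to permute, so no difference between the right arm and other regions given here was tested, and the 95% exact Clopper-Pearson intervals cover counting error only.

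GEI-11 regions were not spread evenly over the right arm but were most numerous from 14 to 17 Mb. Per Mb, the arm had 75.7 combined regions, against 46.1 on the rest of X and 59.9 over the genome. Replicate 1 had 41.8 per Mb on the arm, 19.2 on the rest of X and 30.2 over the genome, and replicate 2 had 53.4, 26.8 and 37.1. Both replicates therefore gave more regions per Mb on the arm than on the rest of X. The block from 15 to 16 Mb was the fullest, with 121 regions in the combined list and with 77 and 84 in replicates 1 and 2. The blocks on either side held 80 combined regions (14 to 15 Mb) and 96 (16 to 17 Mb). On the 11 blocks of 1 Mb before 11 Mb, the combined list gave 34 to 78 regions with a median of 46, the highest from 2 to 3 Mb.

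**Figure D1:**
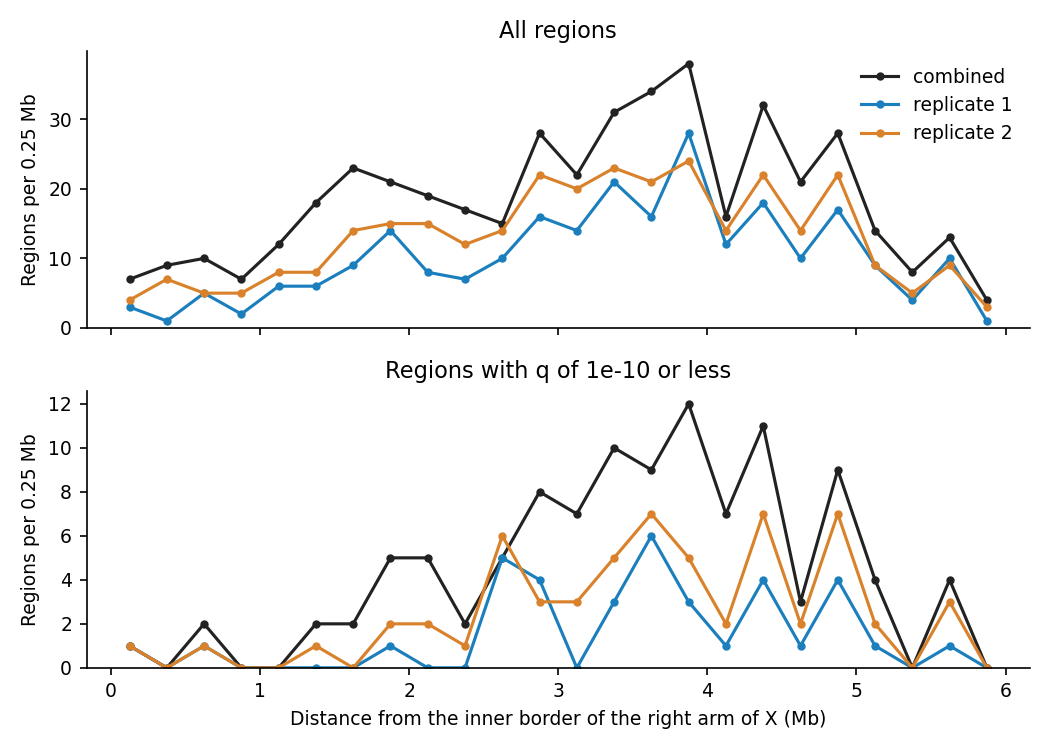
Number of GEI-11 regions in steps of 0.25 Mb along the right arm of chromosome X, against the distance from the inner border, for the combined list and each ChIP replicate, with all regions above and regions of q 1e-10 or less below. Counts in all 3 lists are low near the border, highest between about 2 and 5 Mb from it and low again at the chromosome end.

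The inner part of the arm, up to 14 Mb, had 55.9 combined regions per Mb, and the part from 14 to 17 Mb had 99. The last stretch of the chromosome, beyond 17 Mb, had 38.4 per Mb. These borders were drawn after the values were seen. From 14 to 17 Mb lay 297 of the 447 regions (66.4%), 179 of 247 in replicate 1 (72.5%) and 217 of 315 in replicate 2 (68.9%). Regions with a q of 1e-10 or less lay there even more often by count, at 87 of 108 combined regions, 32 of 36 in replicate 1 and 50 of 60 in replicate 2. In the combined list median −log10 q was 5.71 from 14 to 17 Mb, 3.42 before 14 Mb and 5.15 beyond 17 Mb. Replicate 1 gave 4.26, 3.02 and 3.67 in the same order, and replicate 2 gave 5.19, 3.42 and 2.81, so beyond 17 Mb replicate 2 had the lowest of its medians. The fullest windows of 100 kb, with 17 combined regions each, were 15300001 to 15400000 and 15500001 to 15600000. Windows with 15 each followed, from 15200001, 15600001 and 15700001. In these 5 windows replicate 1 had between 8 and 13 regions and replicate 2 between 7 and 12, and the window from 15600001 was fuller in replicate 1 (13) than in replicate 2 (7). Of 60 windows on the arm 1 was empty in the combined list, from 12700001, and it was empty in both replicates too. It lies in the widest gap between neighbouring regions of the arm, 152 kb from 12690709 to 12842390.

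The regions of the right arm had a higher median −log10 q than those of the rest of X in all 3 lists. Median −log10 q on the arm was 4.95, against 3.42 on the rest of X and 4.20 over all combined regions. In replicate 1 the medians were 3.79 on the arm, 3.21 on the rest of X and 3.53 over all regions. In replicate 2 they were 4.39, 3.47 and 3.72 in the same order. A q of 1e-10 or less was reached by 108 regions of the arm (24.2%, interval 20.3 to 28.4), against 74 of 544 on the rest of X (13.6%, 10.8 to 16.8), where 19.7% of all combined regions reached it. The counts were 36 of 247 in replicate 1 (14.6%, 10.4 to 19.6), beside 11.5% of all its regions, and 60 of 315 in replicate 2 (19.05%, 14.9 to 23.8), beside 14.2%. In replicate 1 the background value lies inside the interval of the arm. Median width was 317 bp on the arm, against 330.5 bp on the rest of X and 315 bp over all regions.

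**Figure D2:**
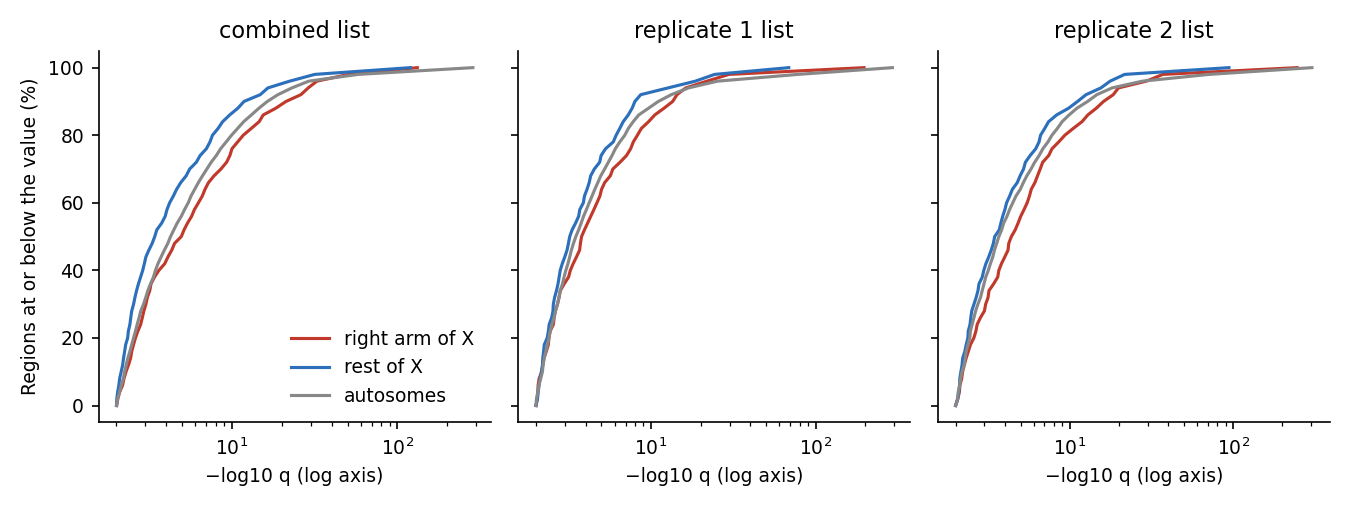
Share of regions at or below each −log10 q (log axis) for the right arm of X, the rest of X and the autosomes, 1 panel per list. The curve of the right arm runs to the right of that of the rest of X through most of its range, with medians of 4.95 and 3.42 in the combined list.

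Set against its length, the arm held most at the ranks below the very strongest. Among the 100 strongest combined regions of the genome, 5 were on the arm, 5% of them, while the arm makes up 5.89% of the genome length. At the next 400 ranks the arm held 49 (12.2%), and at ranks 501 to 1000 it held 38 of 500 (7.6%). Replicate 1 gave 5 of 100 and then 51 of 400, and replicate 2 gave 6 of 100 and then 51 of 400. Beyond rank 5000 of the combined list the share of the arm was 6.01%, 60 of 999. Over all ranks it was 7.45% (447 of 5999).

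Of the 447 regions 203 met a region of both replicates (45.4%, interval 40.7 to 50.2), with 38.8% of all combined regions doing so. On the rest of X 180 of 544 did (33.1%, 29.1 to 37.2). Replicate 1 alone had a further 32 (7.16%, beside 8.15% of all combined regions), and replicate 2 alone had 100 (22.4%, beside 19.9%). Neither replicate had the last 112 (25.1%, 21.1 to 29.3), against 210 on the rest of X (38.6%, 34.5 to 42.8) and 33.2% of all combined regions. The higher share found in both stood beside the stronger q values of the arm, and within rank classes the shares found in both lay closer. The shares found in neither did not lay closer in every class. Both replicates had all 92 regions of the arm that ranked 1 to 1000, as they did 998 of all 1000 combined regions of these ranks. At ranks 1001 to 2000 it was 77 of 86 (89.5%), against 86.5% of all regions of those ranks, and at ranks 2001 to 3000 it was 30 of 69 (43.5%), against 42.7%. At ranks 3001 to 4000, 15 of 65 regions of the arm were found in neither (23.1%), against 35.2% of all regions of those ranks. At ranks 4001 to 5000 it was 45 of 75 (60%), against 68.6%.

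**Figure D3:**
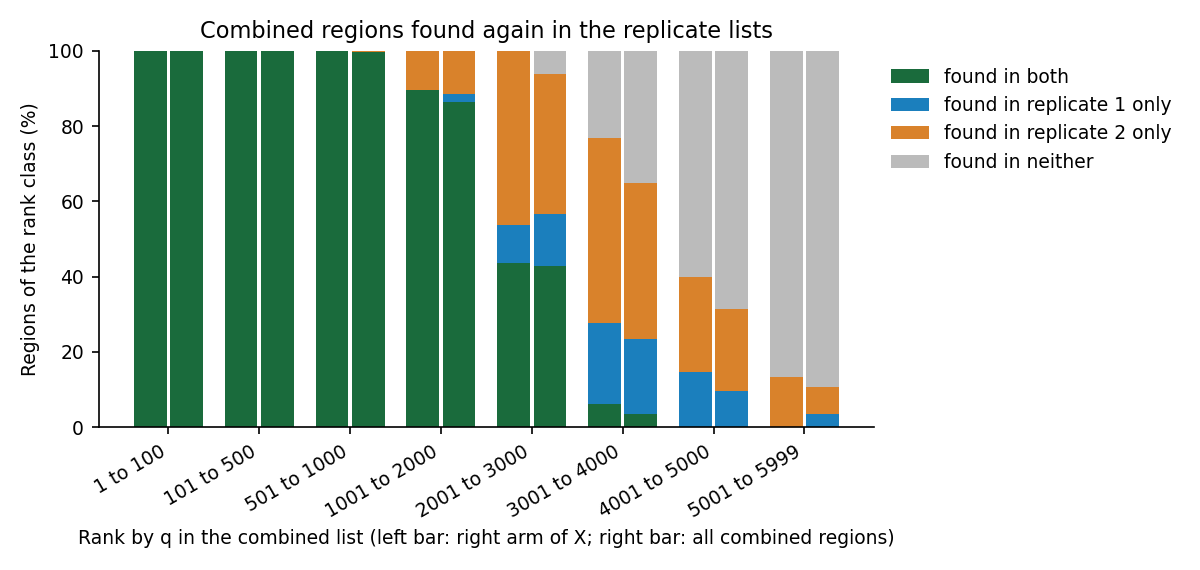
Combined regions found in both replicates, in 1 or in neither, as a percentage of each rank class by q. In each pair the left bar is the right arm of X and the right bar all combined regions; the share found in both is 89.5% and 86.5% at ranks 1001 to 2000 and 43.5% and 42.7% at ranks 2001 to 3000.

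Median strength and width differed between these classes on the arm, but their ranges overlapped. Widths ran from 161 to 2669 bp where both replicates matched and from 2 to 671 bp where neither did. With both replicates matched, −log10 q had a median of 10.7 (3.59 to 132) and width one of 397 bp. The regions of replicate 1 alone had 3.25 (2.45 to 5.82) and 242 bp, and those of replicate 2 alone 3.65 (2.02 to 9.55) and 270 bp. Those found in neither had 2.45 (2.01 to 3.96) and 202.5 bp. All 108 regions of the arm with a q of 1e-10 or less were found in both, as were all 74 on the rest of X and 1177 of 1181 over all combined regions. The combined list comes from the same ChIP replicates, so a strong combined q and a match in both replicates are not independent. Of the 22 regions narrower than 50 bp (4.92% of the arm, beside 7.3% of all combined regions), 19 were found in neither replicate, against 374 of 438 over all combined regions of that width. The 5 strongest found in neither began at 15331151, 14355170, 15585243, 14978714 and 13539760, with −log10 q of 3.96, 3.76, 3.55, 3.53 and 3.42. Of these 3 were 12, 50 and 86 bp wide, and the other 2 were 316 and 535 bp.

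The replicates placed the shared regions at nearly the same spot. For the 203 regions found in both, the centres of the replicate 1 and replicate 2 regions were a median of 26 bp apart, against 32.5 bp on the rest of X and 30 bp over all such regions. They lay within 100 bp in 187 of 203 (92.1%), against 89.4% on the rest of X and 87.4% over all such regions, and at most 293 bp apart. Both replicate regions had to overlap the same combined region, which limits how far apart their centres can lie. These combined regions had a median width of 397 bp on the arm, 481 bp on the rest of X and 406 bp over all. Replicate 2 gave the higher −log10 q in 162 of the 203 (79.8%), by a median of 1.55 (replicate 2 minus replicate 1), against 71.2% and 1.02 over all such regions. The combined list gave a higher −log10 q than either replicate in all 203, against 178 of 180 on the rest of X and 2317 of 2325 over all such regions. Depth is unknown, so none of these differences measures occupancy.

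Taken from the other side, 204 of the 247 replicate 1 regions of the arm met a replicate 2 region (82.6%, interval 77.3 to 87.1), beside 77.6% of all replicate 1 regions. In replicate 2, 203 of 315 met a replicate 1 region (64.4%, 58.9 to 69.7), beside 63% of all its regions. By rank within replicate 2, the share of the arm was 93.2% at ranks 501 to 1000, against 95.4% of all regions there. It was 66.7% against 75.4% at ranks 1001 to 2000, 50% against 44.1% at 2001 to 3000 and 15.4% against 23.8% at 3001 to 3722. Within replicate 1 it was 88.4% against 81% at ranks 1001 to 2000 and 58.75% against 53.8% at 2001 to 3000. Over the 204 matched pairs of the arm, −log10 q had a Spearman rho of 0.80 and a Pearson r of 0.93. The 180 pairs of the rest of X gave 0.65 and 0.93, and all 2344 pairs gave 0.73 and 0.97. Without the 2 strongest pairs of each part, r was 0.75 on the arm and 0.85 on the rest of X. All pairs come from the same 2 libraries, so these are descriptions without a p. A single pair of the arm stands off the trend, a replicate 1 region at 14478777 to 14478985 with −log10 q of 4.30 that meets a replicate 2 region of 100.6. That replicate 2 region also meets a stronger replicate 1 region. With 1 partner for each replicate 2 region, 203 pairs of the arm gave a rho of 0.80 and an r of 0.98, and without the 2 strongest pairs of these the values were 0.80 and 0.92.

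**Figure D4:**
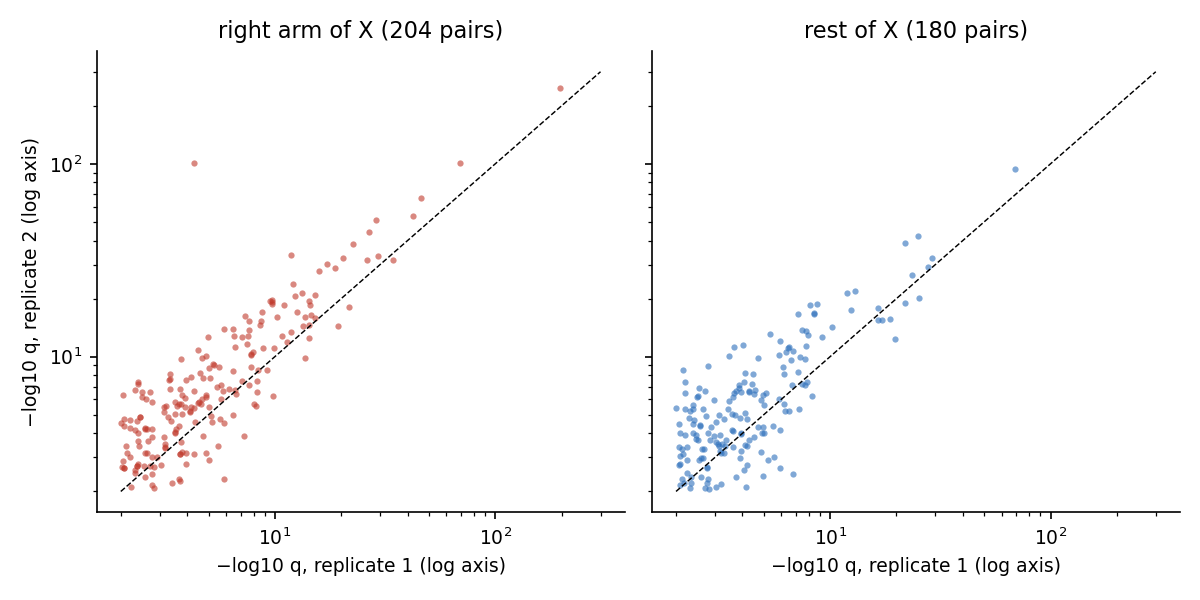
−log10 q of matched regions in replicate 1 (horizontal) and replicate 2 (vertical), both on log axes, for the right arm of X (204 pairs) and the rest of X (180 pairs), with equal values on the dashed line. Most points lie above the line, and the Spearman rho is 0.80 on the arm and 0.65 on the rest of X. Over all 2344 pairs of the lists, not drawn here, it is 0.73.

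The strongest combined region of the arm, 14478055 to 14479093, had a −log10 q of 132 (q = 1.57e-132), with 69.0 in replicate 1 and 100.6 in replicate 2. Its rank was 48 among combined regions and 57 and 54 in replicates 1 and 2. Next to it each replicate had a far stronger region that the combined list lacks. In replicate 1 that was 14476431 to 14477829, with a −log10 q of 197 and rank 7, and in replicate 2 it was 14476519 to 14477777, with 246 and rank 3. The nearest combined region began 225 bp beyond the end of the first and 277 bp beyond the end of the second. Counted by the replicates, the strongest GEI-11 site of the right arm is therefore not among the 447. On the other side of the strongest combined region lay 2 further ones, 14480169 to 14480590 (−log10 q of 32.1, with 19.4 and 14.4 in replicates 1 and 2) and 14481587 to 14481925 (26.1, with 11.9 and 13.4). The 4 sites span 5.50 kb.

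**Figure D5:**
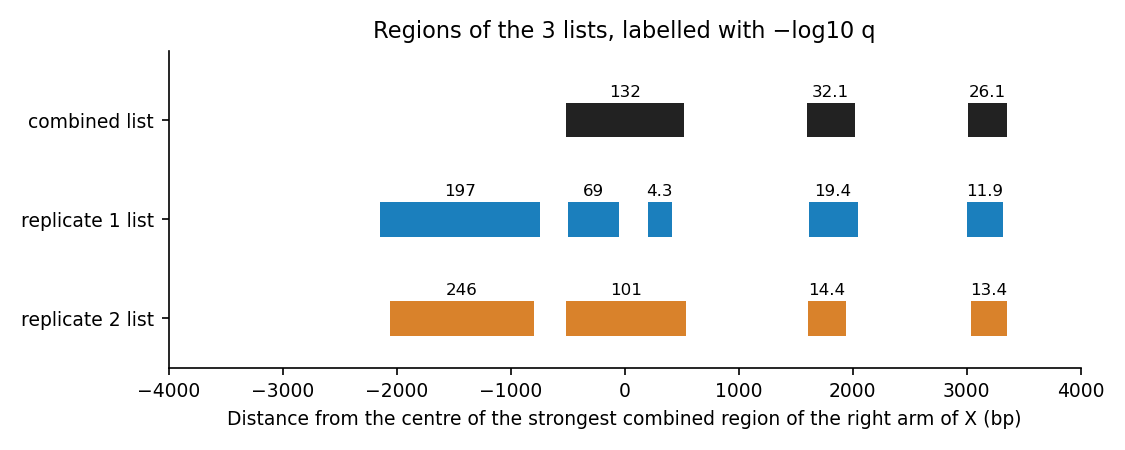
Regions of the combined list and of each replicate within 4000 bp of the centre of the strongest combined region of the right arm, drawn to scale and labelled with −log10 q. The leftmost region is present in replicate 1 (197) and replicate 2 (246) and has no counterpart in the combined list.

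Apart from that site, the regions missing from the combined list were weak. In replicate 1, 11 of 247 regions of the arm met no combined region, and without the strongest their highest −log10 q was 2.84, at rank 1954. In replicate 2 it was 12 of 315, with a highest value of 3.15 at rank 2266 without the strongest. These losses were near those of the whole lists. A combined region was met by 95.5% of replicate 1 regions of the arm and 94.5% of all replicate 1 regions. In replicate 2 the shares were 96.2% and 95.6%. The strongest site was the only missing region of each replicate that the other replicate also listed. The following ones in replicate 1 began at 16932370, 15617592, 16902760 and 17534247, and in replicate 2 at 14657553, 12204447, 14334187 and 13792960. The region at 16932370 lay 407 bp past the end of the widest region of the arm.

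The second strongest combined region of the arm, 16929294 to 16931962, was also the widest, at 2669 bp. Its −log10 q was 113, with 45.9 in replicate 1 and 66.2 in replicate 2, and the replicates gave it widths of 2616 and 2570 bp. Regions of 600 bp or more numbered 45 on the arm (10.1%, interval 7.44 to 13.2), against 82 on the rest of X (15.1%, 12.2 to 18.4) and 11.2% of all combined regions. After the widest came 15606639 to 15607883 at 1245 bp, 15353437 to 15354591 at 1155 bp, 17479352 to 17480498 at 1147 bp and the strongest region at 1039 bp. All 5 were found in both replicates.

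The 20 strongest regions found in both replicates were 360 to 2669 bp wide, with a median of 442.5 bp, against 397 bp over all regions of the arm found in both. The third strongest, 15345248 to 15345853, had a −log10 q of 79.2, with 42.1 in replicate 1 and 53.7 in replicate 2. The fourth, 15663683 to 15664092, was 410 bp wide and had 73.1, with 28.7 and 51.3 in replicates 1 and 2. The fifth, 14637333 to 14637783, had 66.7, with 26.6 and 44.4. Both of these had the higher value in replicate 2. In 3 of the 20 strongest found in both replicates the order was the other way, namely 14525408 to 14526222 (34.4 in replicate 1 and 31.8 in replicate 2), 12362659 to 12363430 (21.7 and 18.1) and 14480169 to 14480590 (19.4 and 14.4). For the other 17 replicate 2 was higher. The widest difference of ranks among the 20 was at 15438721 to 15439138, with rank 285 in replicate 1 (−log10 q of 11.803) and rank 119 in replicate 2 (33.8), followed by 14480169 to 14480590 with ranks 154 and 317.

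Of the other named regions, 16056185 to 16056758 had a combined −log10 q of 58.8, 16091056 to 16091489 had 55.9 and 13700503 to 13701110 had 54.2. The region 16629054 to 16629441 had 50.3, 15362108 to 15362529 had 45.9 and 15388219 to 15388621 had 45.5. Those beginning at 16564438, 15840955, 16681793 and 15559420 had 43.1, 33.9, 33.6 and 32.4. These were each matched by both replicates, as the rule for naming them requires. The lowest of the 20 in the combined list, 14480169 to 14480590, still ranked 211 of 5999. By position 17 of the 20 lay from 14 to 17 Mb, and only 13700503 to 13701110, 12362659 to 12363430 and 17300668 to 17301032 lay outside it. The last of these, with a −log10 q of 35.5, stood alone, with the nearest other combined region 64436 bp away. In 17 of the 20 the centres of both replicate regions were within 50 bp of the combined centre.

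Close pairs were a small part of the arm. A neighbour within 500 bp was present for 33 of 447 (7.38%, interval 5.14 to 10.2), against 35 of 544 on the rest of X (6.43%, 4.52 to 8.83) and 10.2% of all combined regions. The median gap between neighbours on the arm was 6.4 kb. The closest pair, 15534797 to 15535745 and 15535957 to 15536304, was 211 bp apart and its members had −log10 q of 7.21 and 2.62. Of the 10 closest pairs, 2 had both members found in both replicates. These were 13143700 to 13144643 with 13144902 to 13145661 (258 bp apart, −log10 q of 8.66 and 19.4) and 16565717 to 16566036 with 16566324 to 16566645 (287 bp apart, 17.6 and 23.5).

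The right arm of X was not alone in these values. The right outermost of 3 equal parts of chromosome II held 75.5 combined regions per Mb, with a median −log10 q of 6.14 and 56.0% found in both replicates (interval 50.9 to 61.0). That of chromosome III held 76.2 per Mb, with 4.93 and 43.7% (38.4 to 49.1). On the right arm of X the values were 75.7 per Mb, 4.95 and 45.4% (40.7 to 50.2). The left outermost part of X, with 54.1 per Mb, had a median of 3.52 and 35.1% found in both (29.9 to 40.6).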

How the data were processed

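GEI-11::GFP chromatin immunoprecipitation followed by sequencing was analysed from 3 deposited region lists, 1 for each of 2 ChIP replicates and 1 combined. Per the file headers, regions are PeakSeq calls in WormBase WS220, and the deposited value of each is a q-value. Comment lines record that positions were carried over from another build. Not given in the sources used here are the aligner, versions, filters, use of the inputs and the way replicates were combined, and depth per sample is unknown. From these lists −log10 q, width (end minus start plus 1), rank within the list and region centres were computed. Regions were matched at an overlap of at least 1 bp, and where several matched the strongest was taken. Shares carry 95% exact Clopper-Pearson intervals. No test was made, as 2 libraries leave none. The matching and counting steps were tested on simulated data. Python 3.11.15, pandas 2.3.3 and scipy 1.17.1 were used.

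The stretch, the lists and the comparisons were chosen with earlier results of these data known. Named regions are the 20 with the smallest combined q found in both replicates, the 5 fullest windows of 100 kb, the 5 widest, the 5 strongest found in neither replicate, the 5 strongest of each replicate missing from the combined list, and 3 on each side of the border. Close pairs, runs and gaps were named after their values were seen. Alternatives moved the border to 11 or 13 Mb, used 1 replicate list, changed the overlap, kept stronger or wider regions, or merged neighbours within 1 kb. Annotation and sequence of the regions were not analysed here for want of a WS220 genome. RefSeq gene names were counted by chromosome only.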

Additional observations from a re-analysis of the deposited data

How the results depend on the processing

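No paired analysis was possible because a pair needs values of both groups, and no input list was analysed. Of 58 alternatives 34 left a value within its interval, within the spread of the replicate lists or, for counts, within 1.5 times, and 24 moved it. For median width that spread was 0, so every alternative for width counted as moved however small the change. The share of X regions on the right arm was 48.6% with a border at 11 Mb and 40.7% with one at 13 Mb, as the longer and shorter stretch require. It was 53.1% among the stronger 50% of combined regions and 59.3% among those with q of 1e-10 or less, and with 1 replicate list alone it ran from 49.9% to 52.1%. Found in both replicates were 80.6% of the stronger 50% and 100% of those with q of 1e-10 or less, and found in neither 0% in each of these sets. In the same sets a neighbour within 500 bp was present for 4.05% and 1.85%, and the fullest window held 10 and 7 regions. Of all combined regions with q of 1e-10 or less, 1177 of 1181 were found in both. Shares over all combined regions were not computed for the stronger 50%, nor for neighbours in either set. These values are therefore not shown to be particular to the arm. Median width was 319 bp with the border at 11 Mb, 314 bp at 13 Mb and 332.5 bp with neighbours within 1 kb merged. With 1 replicate list alone it was 302 bp in each, q of 1e-10 or less was reached by 14.6% to 19.05%, median −log10 q was 3.79 to 4.39, a neighbour within 500 bp was present for 5.08% to 5.26%, and the fullest window held 12 to 13. Shares found in both or neither have no value with 1 replicate. Changing the overlap moved no value past these limits. The cause of the other changes was not tested, and weak regions depend on a depth that is unknown.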

Other observations

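Runs of 3 or more combined regions with gaps of at most 2 kb were found at 16 places on the right arm of X, a count made after the data were seen and not tested. Runs were not counted on the rest of X or over the genome, so these are not shown to be particular to the arm. The longest run, from 15273829 to 15281560, held 6 regions, of which 3 were found in both replicates. Its strongest member, 15278534 to 15278906, had a −log10 q of 28.7, with 9.66 in replicate 1 and 19.2 in replicate 2, and its weakest had 4.10. Runs of 5 regions lay at 15533705 to 15537431 and 15662545 to 15668391, with 1 and 2 regions found in both replicates. Runs in which every region was found in both replicates were 14062743 to 14065611, 14478055 to 14481925 and 16564438 to 16566645, with 3 regions each. In 6 runs no region was found in both.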
